A study of Rattus norvegicus with 9 samples.

Results

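Cks1b, Ccnd2 and 8 other regulators of the cell cycle were followed in RNA of the rat left ventricle: the CDK inhibitors Cdkn1a, Cdkn1b, Cdkn1c and Cdkn2c, the D-type cyclins Ccnd1, Ccnd2 and Ccnd3, the kinase Cdk4, the kinase-binding subunit Cks1b and the pocket protein Rb1. The 10 genes were chosen by name from 22608 genes, with earlier results of these data known, and all 10 had a row and passed the filter on low counts that left 15467 genes. Because the choice drew on all 3 groups, their levels, differences and counts of calls are given as a description, and no p-value is printed for any of them. Sprague-Dawley rats, with an age labelled as 8 weeks plus 28 days, received saline, angiotensin II (Ang II, the pressor hormone of the renin-angiotensin system, which also acts on heart muscle and fibroblasts) or Ang II with sodium butyrate (NaBu, a salt of butyric acid and an inhibitor of histone deacetylases), all sampled at 28 days, with 3 libraries per group. The rats that received NaBu thus also received Ang II, and no NaBu group without Ang II was analysed here. The labels give no dose and do not say whether each library is a different rat, so p-values measure the spread between these libraries, which may be partly technical.

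A cell that enters the cycle makes D-type cyclins, which bind CDK4 or CDK6 and start the phosphorylation of Rb, so that E2F factors are released from it and switch on genes of DNA replication. CDK inhibitors hold these kinases back: Cdkn1a, Cdkn1b and Cdkn1c (p21, p27 and p57) act on several cyclin-CDK pairs, whereas Cdkn2c (p18) binds CDK4 and CDK6. Cks1b is a small protein that docks on CDKs and that the SCF-Skp2 ubiquitin ligase needs in order to mark p27 for degradation. Most cardiomyocytes of the adult heart no longer divide, while fibroblasts, endothelial and immune cells of the same tissue can. In RNA from whole tissue, a change in the number of cells of a type and a change in RNA per cell cannot be told apart.

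Total estimated counts were between 29284780 and 49865446 per library. Levels are in CPM, the counts relative to the library total after scaling by TMM, a factor that evens out differences in composition between libraries. The log2 differences come from 1 edgeR fit of all 9 libraries. CPM values do not correct for transcript length, so each gene is compared with itself only. Heart muscle markers were abundant in every library (10 genes, summed level from 121350 to 177070 CPM, none at 0). Saline replicate 2 stood apart, with the atrial transcripts Nppa at 3464 CPM (at most 186 in the other 8 libraries) and Myl7 at 789 CPM (at most 27.2). The 186 and 27.2 CPM were both in saline replicate 3, against at most 80.6 and 3.98 CPM in the remaining libraries. Differences against saline that moved most without saline replicate 2 are also given without it or as the range from leaving out 1 library. Some are given without saline replicates 2 and 3 together.

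The promoter sequences of 3 of the regulators are shown because each of these genes was higher in each Ang II+NaBu library than in each Ang II library. They are the 250 bases before the RefSeq gene start in the GRCr8 build, written 5′ to 3′ on the strand of the gene, at chr2:177135334-177135583 (minus strand) for Cks1b, chr9:20897876-20898125 (minus strand) for Ccnd3 and chr4:169491254-169491503 (plus strand) for Cdkn1b. Capitals mark matches, on either strand, to CCAAT, to the GC box GGGCGG and to TTTGAA, the core of the CHR element known from genes of the late cell cycle.
Cks1b: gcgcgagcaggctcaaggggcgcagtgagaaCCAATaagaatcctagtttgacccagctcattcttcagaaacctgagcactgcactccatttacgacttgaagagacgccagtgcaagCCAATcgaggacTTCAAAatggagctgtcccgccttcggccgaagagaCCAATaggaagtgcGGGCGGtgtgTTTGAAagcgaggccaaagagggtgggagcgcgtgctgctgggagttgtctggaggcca
Ccnd3: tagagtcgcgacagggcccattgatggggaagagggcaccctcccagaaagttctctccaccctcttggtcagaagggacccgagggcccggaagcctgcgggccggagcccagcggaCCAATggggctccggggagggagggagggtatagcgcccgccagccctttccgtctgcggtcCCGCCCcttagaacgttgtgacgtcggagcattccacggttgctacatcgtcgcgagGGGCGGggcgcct
Cdkn1b: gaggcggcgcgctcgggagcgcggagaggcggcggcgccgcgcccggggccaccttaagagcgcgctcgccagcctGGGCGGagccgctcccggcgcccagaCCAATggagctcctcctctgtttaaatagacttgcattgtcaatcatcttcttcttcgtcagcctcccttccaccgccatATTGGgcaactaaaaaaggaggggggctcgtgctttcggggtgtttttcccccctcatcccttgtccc

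The Cks1b window held 3 CCAAT matches (beginning 219, 131 and 83 bases before the start), 1 GC box (69 bases before it) and 2 TTTGAA matches (119 and 59 bases before it), none of them overlapping. Ccnd3 held 1 CCAAT match and 2 GC boxes, and Cdkn1b held 2 CCAAT matches and 1 GC box. Of the 7 regulators with a sequence in the table, 6 had a GC box, 3 had CCAAT and Cks1b alone had TTTGAA. Among all 27457 promoter windows of the same length, 32.4% held a GC box, 34.3% held CCAAT and 16% held TTTGAA. The E2F-type letters TTTGGCGC (0.426% of all windows) and TTTCCCGC (0.856%) matched none of the 7 windows, and the E-box CACGTG (5.79%) matched Cdk4 alone, at 3 places. These are matches of letters in short windows, not measured binding sites. No sequence was matched for Ccnd1, Ccnd2 and Cdkn1c.

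**Figure D1:**
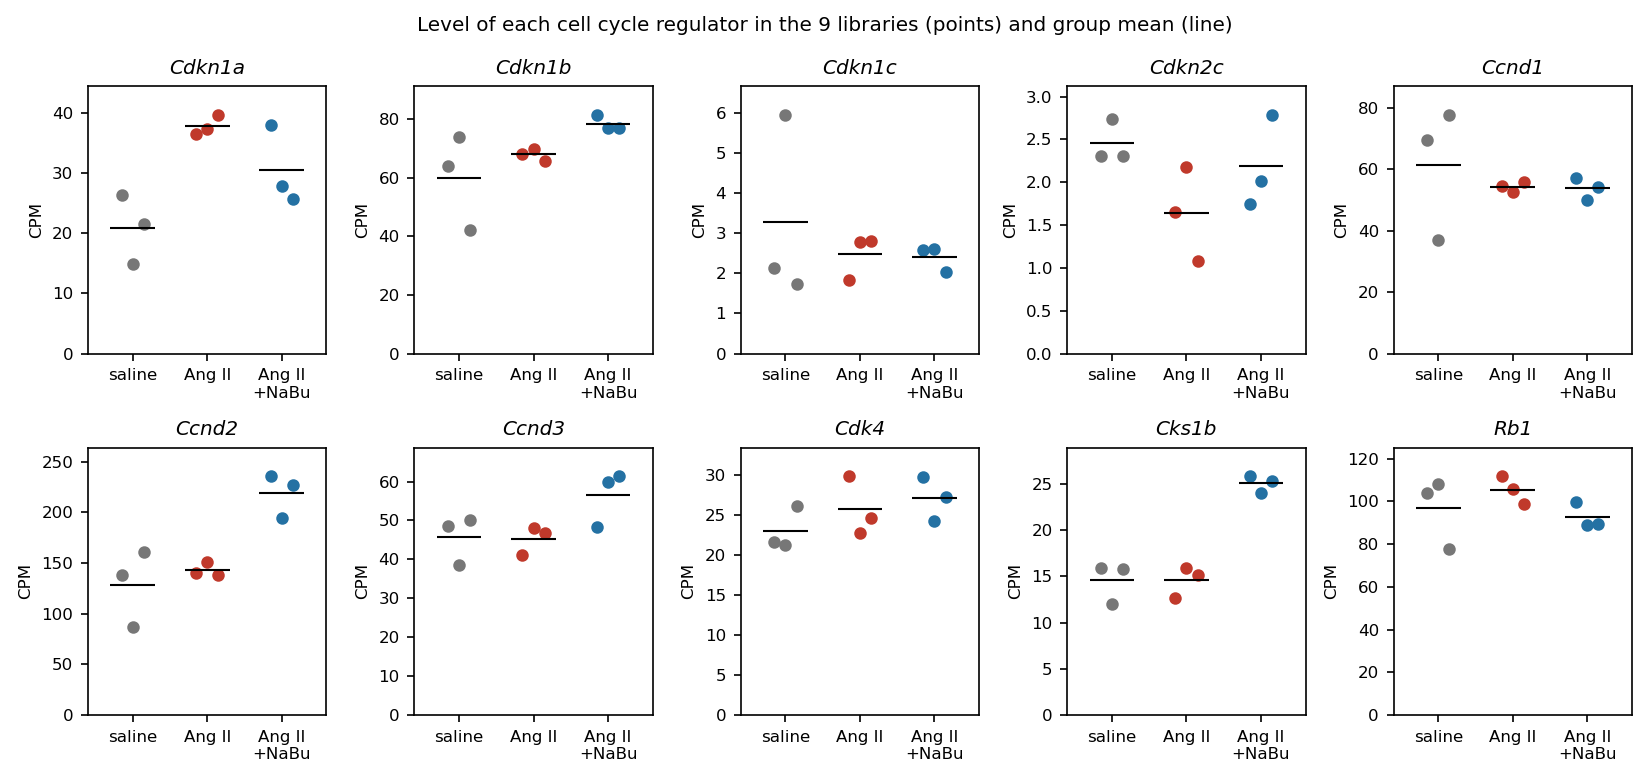
Level in CPM (vertical axes, each from 0) of the 10 regulators in saline, Ang II and Ang II+NaBu libraries; each point is 1 library and each line a group mean. For Cks1b the 3 Ang II+NaBu libraries lie between 24.0 and 25.8 CPM, above the 12.0 to 15.9 CPM of the other 6.

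Cks1b had the largest difference among the 10 regulators when NaBu was added to Ang II. It stood at 15.9, 12.0 and 15.8 CPM in saline replicates 1, 2 and 3, at 12.6, 15.9 and 15.2 CPM in Ang II replicates 1, 2 and 3, and at 25.8, 24.0 and 25.3 CPM in Ang II+NaBu replicates 2, 4 and 6. Every Ang II+NaBu library was thus above all 6 others, while saline and Ang II overlapped. The group means were 14.6 ± 2.25, 14.6 ± 1.73 and 25.0 ± 0.913 CPM (SD, n = 3). The log2 difference was 0.78 (SE 0.14) for Ang II+NaBu against Ang II, 0.78 (SE 0.141) against saline, and 0.00 (SE 0.141) for Ang II against saline. Without saline replicate 2 these were 0.80, 0.67 and -0.13. The values rest on 411 to 1215 estimated counts per library. RefSeq also names a gene Cks1l and a pseudogene Cks1l-ps1, to which no row was matched here, so that reads shared with Cks1b cannot be assigned with certainty.

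The D-type cyclins, which activate CDK4 and CDK6, differed from one another. Ccnd2 was at 138, 86.7 and 161 CPM with saline, 140, 151 and 138 CPM with Ang II, and 236, 194 and 227 CPM with Ang II+NaBu. Its Ang II+NaBu libraries lay above the other 6, as those of Cks1b did. The log2 difference was 0.61 (SE 0.191) against Ang II and 0.77 (SE 0.191) against saline. Between Ang II and saline it was 0.15 (SE 0.191), which became -0.07 without saline replicate 2, the lowest library for this gene, and 0.349 without saline replicate 3. The difference between Ang II+NaBu and saline was 0.564 without saline replicate 2.

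Ccnd3 was at 48.6, 38.5 and 50.03 CPM with saline, 41.1, 48.0 and 46.7 CPM with Ang II, and 48.3, 59.8 and 61.4 CPM with Ang II+NaBu. The lowest Ang II+NaBu library exceeded the highest Ang II library by a narrow margin (48.3 against 48.0 CPM) and lay within the saline range. The log2 difference was 0.32 (SE 0.133) against Ang II, 0.31 (SE 0.133) against saline and -0.01 (SE 0.133) between Ang II and saline.

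Ccnd1 had its widest spread in saline, at 69.6, 36.9 and 77.8 CPM, against 54.5, 52.7 and 55.8 CPM with Ang II and 57.2, 49.8 and 54.3 CPM with Ang II+NaBu. The groups overlapped in every comparison, and the Ang II and Ang II+NaBu means were close (54.3 ± 1.58 and 53.8 ± 3.72 CPM, log2 difference -0.01, SE 0.218). Saline replicate 2 was the lowest of the 9 libraries. Without it the log2 difference to saline went from -0.18 to -0.44 for Ang II and from -0.19 to -0.44 for Ang II+NaBu. Without saline replicate 3 they were 0.03 and 0.017. In the fit without saline replicate 2, edgeR called Ccnd1 lower with Ang II+NaBu than with saline. The difference against saline thus depended on which saline library was left out. The levels of Ccnd1 with Ang II+NaBu and with Ang II differed by less than the spread between libraries.

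Among the CDK inhibitors, Cdkn1a (p21, a target of p53 that also responds to histone deacetylase inhibitors in many cultured cells) had the largest difference between Ang II and saline. It was at 26.3, 14.97 and 21.6 CPM with saline, 36.5, 37.4 and 39.8 CPM with Ang II, and 38.0, 27.9 and 25.7 CPM with Ang II+NaBu. Each Ang II library was above each saline library, and Ang II+NaBu replicate 2 lay in the Ang II range whereas replicates 4 and 6 lay below it. The log2 difference was 0.85 (SE 0.203) for Ang II against saline, -0.31 (SE 0.2) for Ang II+NaBu against Ang II and 0.54 (SE 0.202) against saline. Without saline replicate 2 the first was 0.655, and without saline replicates 2 and 3 together it was 0.525. Without Ang II+NaBu replicate 2 the difference against Ang II was -0.50 and that against saline 0.354, and without Ang II+NaBu replicate 6 the difference against Ang II was -0.201. The value against saline was 0.359 without saline replicate 2. Between Ang II and saline, markers were higher with Ang II in 0 of 8 for fibroblasts (median log2 difference -0.48), 0 of 7 for macrophages (-0.39), 1 of 6 for smooth muscle and pericytes (-0.30) and 0 of 5 for atrial muscle (-8.96). They were higher in 5 of 5 for erythroid cells (0.60, summed level 515 to 922 against 434 to 497 CPM), 7 of 8 for endothelium (0.09), 4 of 6 for lymphocytes (0.26) and 6 of 10 for heart muscle (0.01). Saline replicate 2 had the highest summed level of fibroblast markers (4474 CPM, against 2630 and 3706 in saline replicates 1 and 3). The same held for macrophage (288 against 211 and 233) and smooth muscle and pericyte markers (1234 against 680 and 861). Atrial markers were at 5632 CPM there, against 59.6 and 257. The marker differences were not fitted without saline replicate 2. The part of the markers in the difference of Cdkn1a was not tested.

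Cdkn1b (p27, the inhibitor degraded through Cks1b and Skp2) was at 64.0, 73.9 and 42.3 CPM with saline, 68.2, 70.0 and 65.9 CPM with Ang II, and 81.6, 76.9 and 77.1 CPM with Ang II+NaBu. All 3 Ang II+NaBu libraries were above the other 6, by a smaller ratio of means than for Cks1b (1.15 against 1.72 for Ang II+NaBu over Ang II). The log2 difference was 0.21 (SE 0.167) against Ang II, 0.39 (SE 0.168) against saline and 0.18 (SE 0.168) between Ang II and saline. Without saline replicate 2 the last 2 were 0.576 and 0.351, and without saline replicate 3, the lowest library, they were 0.189 and -0.019. Cks1b and Cdkn1b RNA, whose proteins have opposed actions on CDKs, were therefore both highest in the Ang II+NaBu libraries. Protein was not measured.

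The remaining inhibitors were near the lower end of detection. Cdkn2c was at 2.31, 2.74 and 2.31 CPM with saline, 1.66, 2.18 and 1.09 CPM with Ang II and 1.75, 2.02 and 2.79 CPM with Ang II+NaBu, from 47 to 134 estimated counts. Each Ang II library was below each saline library, with a log2 difference of -0.58 (SE 0.333) that was -0.345 without Ang II replicate 3 (its lowest library) and -0.836 when Ang II replicate 2 was left out instead. Between Ang II+NaBu and Ang II it was 0.42 (SE 0.332), and from 0.204 to 0.702 leaving out 1 library. Cdkn1c (p57) had 5.96 CPM in saline replicate 2, while the remaining 8 libraries lay from 1.73 to 2.82 CPM. Its log2 difference between Ang II and saline was -0.40 (SE 0.439) with all libraries and 0.36 without saline replicate 2. The direction for Cdkn1c between Ang II and saline was therefore set by saline replicate 2. Between Ang II+NaBu and saline the log2 difference of Cdkn1c was -0.45 (SE 0.439), and from -0.748 to 0.33 leaving out 1 library.

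Cdk4, the partner of the D-type cyclins, overlapped between all groups, at 21.7, 21.3 and 26.1 CPM with saline, 29.9, 22.7 and 24.6 CPM with Ang II and 29.7, 24.3 and 27.2 CPM with Ang II+NaBu. Rb1, the substrate that they phosphorylate, was at 104, 108 and 77.7 CPM with saline, 112, 106 and 98.8 CPM with Ang II and 99.5, 88.7 and 89.4 CPM with Ang II+NaBu. Leaving out 1 library moved Rb1 between Ang II and saline from 0.13 to values between -0.009 and 0.209, and Cdk4 from 0.16 to values between 0.062 and 0.26. The largest log2 differences of these genes were 0.23 (SE 0.137) for Cdk4, between Ang II+NaBu and saline, and -0.19 (SE 0.128) for Rb1, between Ang II+NaBu and Ang II. All 3 groups overlapped for both genes.

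**Figure D2:**
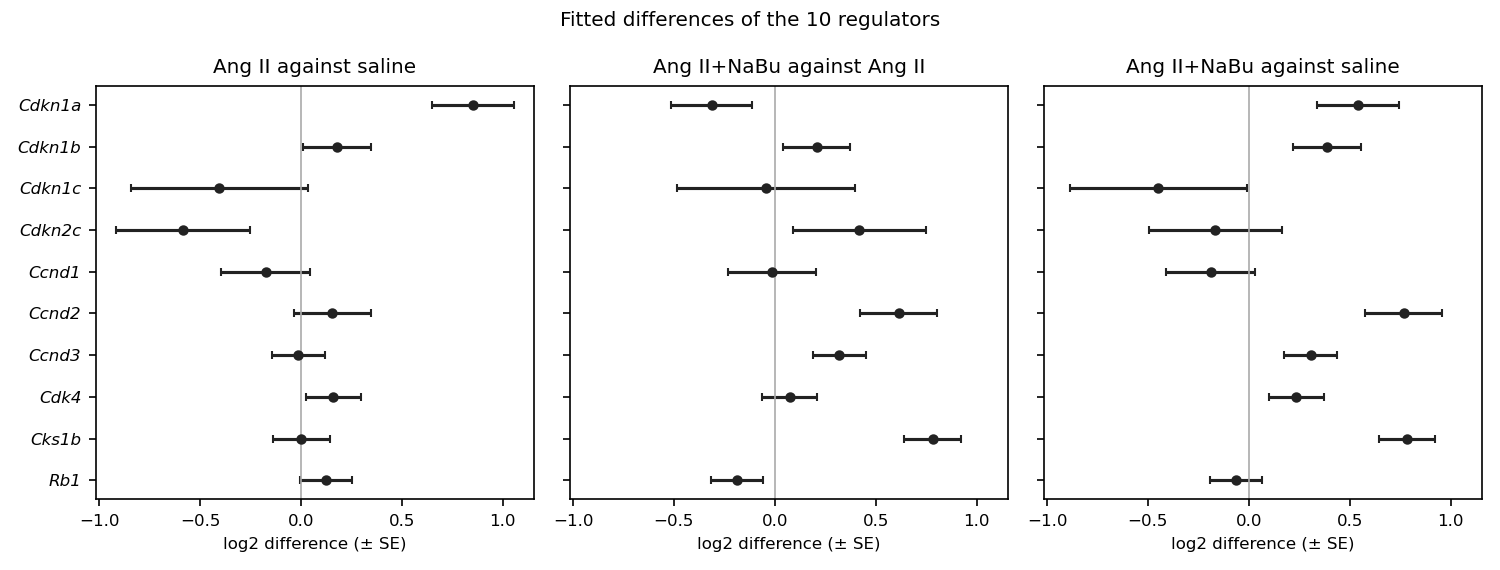
Fitted log2 difference (horizontal axis) of each regulator in the 3 comparisons, with bars of 1 standard error (SE). Cdkn1a is the farthest from 0 for Ang II against saline (0.85), and Cks1b (0.78) and Ccnd2 (0.61) for Ang II+NaBu against Ang II.

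In each comparison 6 of the 10 regulators were higher and 4 lower by the sign of the fitted log2 difference. For Ang II against saline the 6 include Cks1b at 0.0012 (SE 0.141), whose sign changed in 5 of 19 alternatives. The counts of calls that follow describe genes chosen with these values known, so nothing is read from their distance to the share among all genes tested. For Ang II against saline, edgeR called 0 of the 10 regulators and 0% of all genes tested at an adjusted p under 0.05, 1 regulator had an unadjusted p under 0.05 (5.94% of all genes tested), and DESeq2 called 1 regulator. In that comparison 2 regulators, Cdkn1a and Cdkn2c, did not overlap between the groups, beside 9.9% of all genes tested (4.94% higher, 4.97% lower). For Ang II+NaBu against Ang II, 1 of 10 was called (Cks1b, higher) beside 1.6% of all genes tested (0.647% higher, 0.957% lower), and 4 of 10 did not overlap beside 35.6% (18.1% higher, 17.5% lower). These 4 were Cks1b, Ccnd2, Ccnd3 and Cdkn1b. For Ang II+NaBu against saline, 2 of 10 were called (Cks1b and Ccnd2, both higher) beside 5.06% (3.01% higher, 2.05% lower), and 3 did not overlap (Cks1b, Ccnd2 and Cdkn1b) beside 28.6% (14.5% higher, 14.1% lower). The median log2 difference over the regulators was 0.06, 0.14 and 0.27 in the 3 comparisons in this order, against 0.00, -0.02 and -0.05 over all genes tested. The second comparison shares its Ang II libraries with the first, and the third shares libraries with both. The counts of calls also varied with the libraries used. The call of Cks1b against Ang II was lost without saline replicate 1 and without any single Ang II or Ang II+NaBu library, and none of the 10 was called against saline without any single Ang II+NaBu library or when only these groups were fitted.

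Transcript assignment moved between libraries for some regulators. Cdkn1a has 2 RefSeq transcripts in the tables. XM_006256128.3 held between 46.6% (Ang II replicate 2) and 100% of its counts, and NM_080782.3 held 53.4% in Ang II replicate 2, 36.7% in Ang II+NaBu replicate 2, at most 11.1% in the other 7 libraries and none in 3 of them. The summed level of Cdkn1a was nonetheless narrow in the Ang II group (36.5 to 39.8 CPM), so the assignment varied where the sum did not. With the higher transcript alone in place of the sum, the log2 difference of Cdkn1a between Ang II and saline was 0.55. For Cdkn1c, 4 of 7 transcripts had counts, and the transcript that led differed by library: XM_008760078.2 held 75.9% in saline replicate 2, where NM_001033757.1, which led in most libraries, held 4.91%. The minor Ccnd1 transcript XM_008760168.1 ranged from 0.42% in Ang II+NaBu replicate 4 to 23.7% in Ang II+NaBu replicate 6. Cks1b, Ccnd2, Cdkn2c and Rb1 have 1 transcript each, so a shift between listed transcripts of the same gene does not arise for them. The calls of Cks1b and Ccnd2 were nonetheless lost in the fit with the highest transcript per gene.

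**Figure D3:**
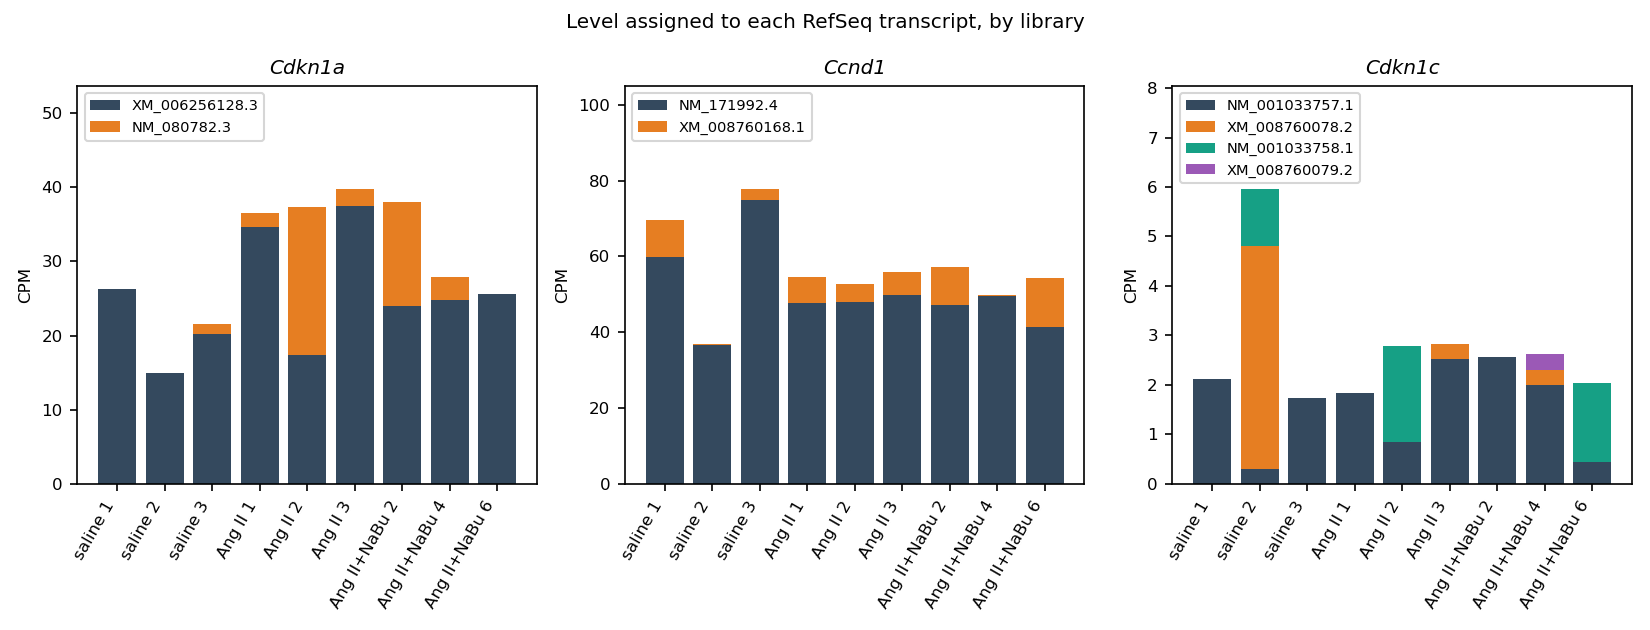
Level in CPM (vertical axes) assigned to each RefSeq transcript of Cdkn1a, Ccnd1 and Cdkn1c in the 9 libraries, stacked to the level of the gene. In Ang II replicate 2 the share of Cdkn1a held by NM_080782.3 is 53.4%, although the bar is as high as its neighbours.

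The other genes of the cell cycle were taken from 10 lists with 87 genes, of which 84 were tested. These lists were also chosen with earlier results of these data known. The counts, shares and p-values of their genes, here and below, are therefore a description. With Ang II against saline edgeR called 0 of these 84 genes, beside 0% of all genes tested, and DESeq2 called 0, while 10 had an unadjusted p under 0.05 (5.94% of all genes tested did). With Ang II+NaBu against Ang II 1 rose and 0 fell (1.19%, beside 1.6% of all genes tested), and against saline 3 rose and 0 fell (3.57%, beside 5.06%). These shares of calls were no higher than among all genes, from which nothing is concluded. The median log2 differences over the 84 genes were -0.07, 0.01 and -0.10 in the 3 comparisons in this order.

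Skp1, the adaptor that joins Skp2 to the cullin of the SCF ligase, was the gene that rose against both groups. It was at 247, 227 and 254 CPM with saline, 306, 295 and 284 CPM with Ang II, and 467, 378 and 407 CPM with Ang II+NaBu, so that no 2 groups overlapped. The log2 difference was 0.50 (SE 0.105, edgeR adjusted p = 0.0485) against Ang II, 0.78 (SE 0.105, edgeR adjusted p = 0.0128) against saline, and 0.28 (SE 0.105, edgeR adjusted p = 0.754) between Ang II and saline. The call against Ang II was lost in 11 of 17 alternatives, among them the fits without saline replicate 1 and without any single Ang II or Ang II+NaBu library (adjusted p from 0.000193 to 0.2 over the alternatives, log2 difference from 0.39 to 0.57). The call against saline was lost in 4 of 17 (adjusted p from 8.35e-11 to 0.0795), without Ang II+NaBu replicate 2 or 6, without saline replicates 2 and 3 together and with only these groups fitted.

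RefSeq names the pseudogenes Skp1-ps1 and Skp1-ps2, to which no row was matched here, so reads shared with Skp1 cannot be assigned with certainty. The other parts of that ligase did not pass the test in any comparison. Cul1, its cullin scaffold, averaged 117 ± 6.69, 117 ± 1.93 and 126 ± 6.88 CPM in saline, Ang II and Ang II+NaBu (n = 3), and Rbx1, its RING subunit, averaged 21.8 ± 4.53, 22.1 ± 2.29 and 27.6 ± 4.7 CPM. Skp2, the F-box protein that Cks1b assists, averaged 1.82 ± 0.882, 0.952 ± 0.123 and 1.05 ± 0.173 CPM. Cks2, the paralog of Cks1b, was at most 0.993 CPM in any library and listed at 0 in saline replicate 2. Its low counts set no direction.

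Ccng1 (cyclin G1, a target of p53) and Ccnh (cyclin H of the CDK-activating kinase) rose against saline. Ccng1 averaged 609 ± 85.3, 673 ± 106 and 1072 ± 93.3 CPM. It was higher with Ang II+NaBu by 0.82 in log2 against saline (SE 0.149, edgeR adjusted p = 0.0228) and by 0.67 against Ang II (SE 0.149, edgeR adjusted p = 0.0537). Ccnh averaged 25.5 ± 2.54, 25.7 ± 0.85 and 35.3 ± 3.45 CPM, with 0.47 (SE 0.11, edgeR adjusted p = 0.0398) against saline and 0.46 (SE 0.109, edgeR adjusted p = 0.0648) against Ang II. For both genes all 3 Ang II+NaBu libraries were above the other 6. The call against saline was lost in 7 of 17 alternatives for Ccng1 (adjusted p from 4.06e-06 to 0.118), among them those without Ang II replicate 2 or any single Ang II+NaBu library. For Ccnh it was lost in 11 of 17 (adjusted p from 0.00492 to 0.278), among them those without saline replicate 2 or 3, Ang II replicate 2 or 3, or any single Ang II+NaBu library. Cdk6, a kinase partner of the D-type cyclins, averaged 41.7 ± 8.72, 42.3 ± 3.12 and 31.7 ± 2.19 CPM. Its Ang II+NaBu libraries lay below each Ang II library (-0.42 in log2, SE 0.143, edgeR adjusted p = 0.133) and overlapped saline. Cdk6 was called against Ang II with only these groups fitted, and against saline without saline replicate 3.

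The other lists gave no call. Cdc25a, a phosphatase that activates CDKs, averaged 15.4 ± 1.9, 14.7 ± 1.92 and 22.5 ± 2.37 CPM, and its log2 difference against Ang II was 0.61 (SE 0.143, edgeR adjusted p = 0.0635). It was called in that comparison without saline replicate 2 and by DESeq2. Mdm2, the ubiquitin ligase of p53, was at 33.9, 14.7 and 38.7 CPM with saline, 15.8, 32.1 and 31.7 CPM with Ang II and 45.9, 43.1 and 44.0 CPM with Ang II+NaBu (0.74 against Ang II, SE 0.337, edgeR adjusted p = 0.231). Its Ang II+NaBu libraries lay above the other 6, but the spread within saline and Ang II was wide. Against Ang II, Ccne2, a cyclin of the entry into S phase, differed by -0.49 in log2 (SE 0.167, edgeR adjusted p = 0.133). E2f5, an E2F factor that works mainly as a repressor, differed by -0.43 (SE 0.212, edgeR adjusted p = 0.266). Of 12 pocket proteins and E2F factors 5 were higher and 7 lower with Ang II+NaBu than with Ang II (median -0.05), and of 7 genes of the MuvB complex and late cell cycle factors, which repress or activate cell cycle genes, 3 were higher and 4 lower (median -0.05). The inhibitor Cdkn2a was listed at 0 in all 9 libraries, and no row was matched for Cdkn2d.

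No gene of the mitosis or replication lists was called by edgeR in any comparison. Mean levels over the 9 libraries were between 0.279 and 16.4 CPM in the mitosis list. In the replication list they were between 0.413 and 36.1 CPM. Of 18 mitosis genes 14 were lower with Ang II than with saline (median log2 difference -0.65, 0 called by edgeR, 4 with an unadjusted p under 0.05 beside 5.94% of all genes tested, 0 called by DESeq2). The Ang II and saline libraries did not overlap for 4 of the 18, all lower with Ang II (22.2%, beside 4.97% of all genes tested). Some of the lower genes were highest in saline replicate 3 (Mki67 at 27.8 CPM against 16.1 and 16.5 in saline replicates 1 and 2, Prc1 at 6.70 against 3.27 and 3.24). Others were not (Aurkb at 0.462 against 1.08 and 1.04). Aurkb, among those 4, rests on 4 to 14 estimated counts with Ang II. The median was not computed without saline replicate 3. Of the same 18 genes, 11 were higher with Ang II+NaBu than with Ang II (median 0.09, 0 called by edgeR, 1 with an unadjusted p under 0.05 beside 22.4% of all genes tested, 0 called by DESeq2). Against saline, 3 of the 18 were higher and 15 lower with Ang II+NaBu (median -0.41, 0 called by edgeR). There the libraries did not overlap for 3 genes, all lower (16.7%, beside 14.1% lower among all genes tested). Among mitosis genes with a mean of at least 1 CPM, Cdca8, of the chromosomal passenger complex, had the lowest difference between Ang II and saline (-1.56, SE 0.736, edgeR adjusted p = 0.854), and Nusap1, of the mitotic spindle, the highest between Ang II+NaBu and Ang II (0.69, SE 0.322, edgeR adjusted p = 0.239). Cdk1, the kinase of mitosis, averaged 1.44, 1.33 and 0.625 CPM in saline, Ang II and Ang II+NaBu. Of 14 replication genes 5 were higher and 9 lower with Ang II+NaBu than with Ang II, with a median of -0.11, between Mcm3 (-0.24, SE 0.282) and Mcm5 (0.35, SE 0.258) among genes of at least 1 CPM. Between Ang II+NaBu and Ang II, edgeR called Cks1b but not Ccnd2, and no gene of the mitosis or replication lists. The libraries of these groups did not overlap for 2 mitosis and 3 replication genes (11.1% and 21.4%, beside 35.6% of all genes tested). Nothing is concluded from this contrast, because Cks1b and Ccnd2 were chosen with these values known.

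**Figure D4:**
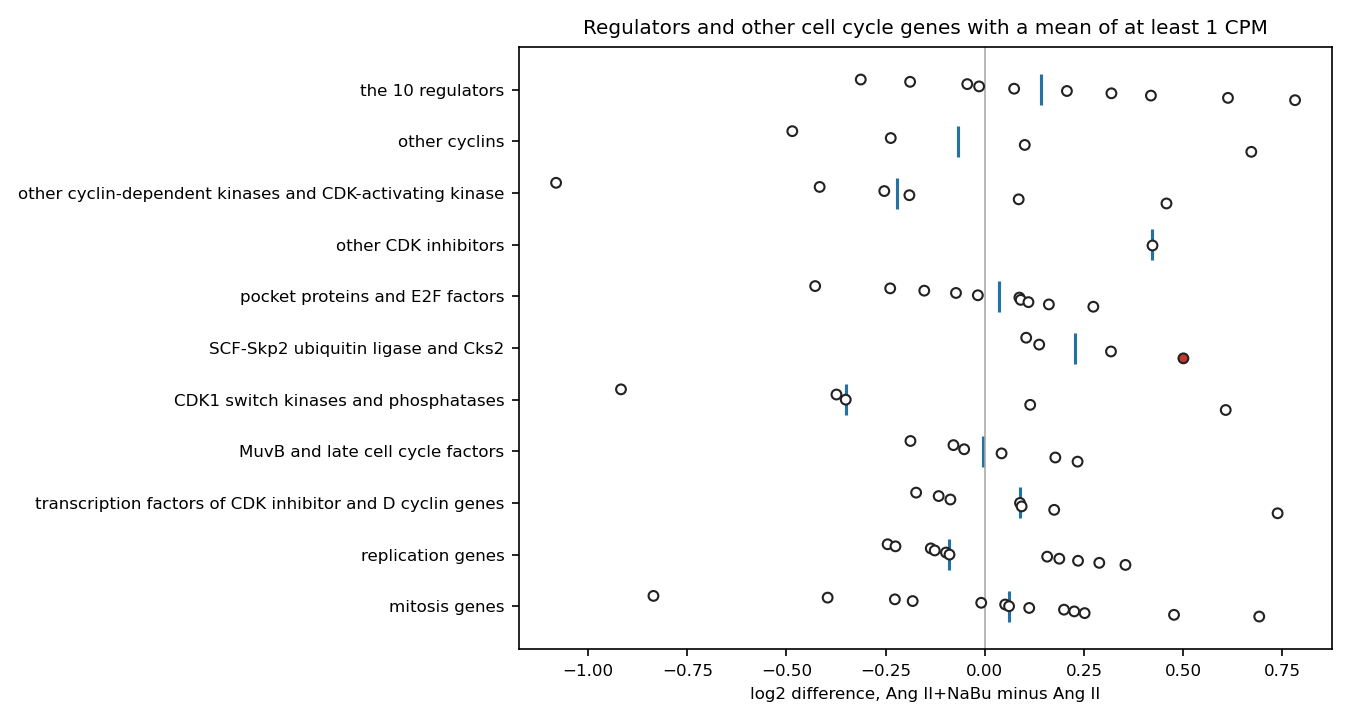
Log2 difference between Ang II+NaBu and Ang II (horizontal axis) of the 10 regulators and of other cell cycle genes with a mean of at least 1 CPM, by list; each circle is 1 gene, blue lines are medians of the circles drawn (the text gives medians over all listed genes tested) and a filled circle is a listed gene with an edgeR adjusted p under 0.05. Skp1 (0.50) is the filled circle, and Cks1b (0.78) is the circle at the right end of the top row, where calls are not marked.

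The genes whose pattern over the 9 libraries lay nearest to that of Cks1b were sought among 10160 other genes with a mean of at least 5 CPM. The measure was the root mean square difference in log2(CPM + 0.5), with each gene centred on its own mean. The nearest were Fam210a (0.0719), a mitochondrial protein, Dlat (0.0804), a subunit of the pyruvate dehydrogenase complex, and Des (0.081), the muscle intermediate filament protein desmin. Des was at 1548, 1191 and 1848 CPM with saline, 1301, 1589 and 1519 CPM with Ang II and 2460, 2286 and 2465 CPM with Ang II+NaBu. Like Cks1b, all 3 were lowest in replicate 2 within saline and in replicate 1 within Ang II, and above all other libraries in each Ang II+NaBu library. This likeness follows from how the 3 genes were picked and is a description only. Of the other regulators, Ccnd2 (0.167, rank 233) and Ccnd3 (0.245, rank 1104) lay nearest to Cks1b, and Cdkn1a (0.503, rank 7134) lay far from it.

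**Figure D5:**
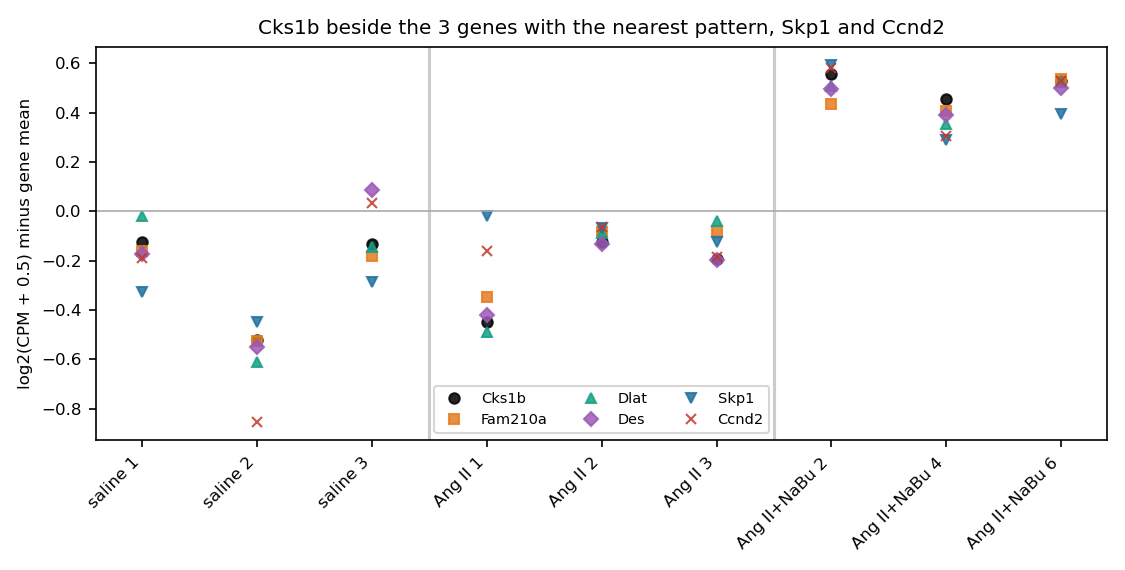
log2(CPM + 0.5) minus the mean of the gene (vertical axis) in the 9 libraries for Cks1b, its 3 nearest genes, Skp1 and Ccnd2. The points of Cks1b, Fam210a, Dlat and Des lie close together in each library, which follows from how these genes were picked. All 6 genes are highest in the 3 Ang II+NaBu libraries.

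Markers of cell types moved in the same comparison. Of 10 heart muscle markers, 9 were higher with Ang II+NaBu than with Ang II (median log2 difference 0.23, summed level 163550 to 177070 against 147020 to 155450 CPM), and of 8 endothelial markers 0 were higher (median -0.24, 1356 to 1574 against 1618 to 1857 CPM). Smooth muscle and pericyte markers were higher in 0 of 6 (585 to 811 against 758 to 846 CPM), lymphocyte markers in 0 of 6 (4.79 to 5.81 against 7.25 to 10.3 CPM) and erythroid markers in 0 of 5 (371 to 512 against 515 to 922 CPM). Fibroblast markers were higher in 6 of 8 (2603 to 3254 against 2601 to 2748 CPM) and macrophage markers in 4 of 7 (180 to 208 against 172 to 194 CPM). No defining marker of these lists was at 0 in all libraries. Their part in the differences of Cks1b, Ccnd2 and Skp1 was not tested.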

How the data were processed

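RNA of the left ventricle was sequenced in 9 libraries (3 groups of 3). Estimated counts per transcript were deposited by the authors in a separate table for each group, per the file headers. Values are whole numbers; rounding changed nothing. Among values from 3 to 22, 56.2% were 0 or 1 above a multiple of 4 (50% if even), so 1 fragment may be worth about 4 counts, and dividing by 4 was an alternative. A stray line-end character in the saline table was stripped. The submitters' processing notes name Bowtie 0.12.2 and the mouse build mm8, although the files list rat RefSeq transcripts. How reads were counted, and whether by strand, is not given in the sources used here. Each table holds 1 group, so table and group cannot be told apart. The series' design text describes tendon and was not used. The Ang II+NaBu columns are numbered 2, 4 and 6 and were mapped to their group only.

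The 55767 transcripts were summed to 22608 genes and fitted with edgeR 4.0.16 in R 4.3.3 (quasi-likelihood, TMM factors from 0.887 to 1.14, filterByExpr, prior count 0.125), all groups together, leaving 15467 genes. A call is a Benjamini-Hochberg adjusted p under 0.05 over all genes tested. DESeq2 1.42.0 was an alternative. The script was tested on simulated data. The regulators and the gene lists were chosen with earlier results of these data known. Named genes are the regulators, each called listed gene, listed genes at the ends of a list with a mean of at least 1 CPM and the 3 genes nearest to Cks1b. Cul1, Rbx1, Cks2, Cdk6, Cdkn2a and Cdkn2d were named for their role after their values were seen. Mki67, Prc1 and Aurkb were named to show the spread between saline libraries, also after their values were seen. Promoter sequences are from RefSeq (GRCr8).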

Additional observations from a re-analysis of the deposited data

How the results depend on the processing

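The log2 differences of Cks1b, Ccnd2 and Ccnd3 for Ang II+NaBu against Ang II kept their sign in all 18 alternatives (0.675 to 0.871, 0.503 to 0.693 and 0.213 to 0.421), as did that of Cdkn1a for Ang II against saline in 19 (0.525 to 1.054); no called value reversed. The counts of calls did not hold. Scaling by library total moved the median of all genes to -0.133 for Ang II+NaBu against Ang II and -0.109 against saline.

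For Ang II against saline, all genes called numbered 0 with edgeR, 57 with DESeq2 (1 regulator, Cdkn1a), 1 with only these groups, 3 with the highest transcript per gene, 11 without saline replicates 2 and 3 together, and 0 to 7 leaving out 1 library. Saline and Ang II libraries share replicate numbers, and with the replicate block 0 genes were called. Across genes, the deviations of same-numbered libraries had r = -0.05, -0.056 and -0.014. Libraries with different numbers had r from -0.028 to 0.065. Whether the numbers pair the libraries was not tested. The Ang II+NaBu columns carry other numbers and could not be paired.

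For Ang II+NaBu against Ang II, all genes called numbered 248 (100 higher, 148 lower), 1515 with DESeq2 (862 and 653), 4 with total scaling, 1802 with only these groups (1082 and 720), 5 with the highest transcript, 1695 without saline replicates 2 and 3 (1020 and 675), and 1 to 1482 leaving out 1 library. Regulators called numbered 1, and 2 with DESeq2, with only these groups or without saline replicates 2 and 3, 0 with total scaling or the highest transcript, and 0 to 2 leaving out 1 library. Other cell cycle genes called numbered 1, and 4 with DESeq2, 0 with upper-quartile or total scaling, no filter or the highest transcript, 5 with only these groups or without saline replicates 2 and 3, and 0 to 4 leaving out 1 library.

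For Ang II+NaBu against saline, all genes called numbered 782, 1990 with DESeq2, 412 with total scaling, 9 with only these groups, 21 with the highest transcript, 109 without saline replicates 2 and 3, and 6 to 1303 leaving out 1 library. Regulators called numbered 2, 1 with upper-quartile scaling, 0 with only these groups, the highest transcript or without saline replicates 2 and 3, and 0 to 3 leaving out 1 library. Other cell cycle genes called numbered 3, 6 with DESeq2, 0 with only these groups or without saline replicates 2 and 3, 1 with the highest transcript, and 0 to 3 leaving out 1 library. The cause was not tested. The values of Cdkn2c and Cdkn1c, near 2 CPM, have the widest SE of the 10 regulators.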
